A study of Phyllostachys nigra with 21 samples.

Results

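One day of low temperature (LT, 4 °C) was compared with one day of room temperature (RT, 25 °C) in the culms of black bamboo (Phyllostachys nigra, Pn). The members were chosen by group label, LT1d against RT1d, which gave 6 of the 21 RNA-seq libraries of the series, with 3 libraries per group. Culms sampled before treatment (CK, 3 libraries) are given beside the results as values, and no test was run on them. All groups came from plants of a single species, raised in pots from field rhizomes and kept in a greenhouse before the growth chambers at both temperatures were started together, with no transgene or further agent. The number of shoots behind each library and the time of day at sampling were not given in the sources used here, so p-values measure the spread between these libraries only. Gene expression was measured in all 42460 genes of a moso bamboo (Phyllostachys edulis) annotation, and a gene's description, KEGG pathway, and GO terms are those deposited with it. Levels are FPKM (fragments per kilobase of transcript, relative to all mapped fragments), and fold changes are on the count scale of the edgeR test.

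Plants sense chilling through membranes, calcium signals, and changes in protein folding, and they respond through transcription factors that bind cold- and drought-responsive promoter elements, such as the DREB family. Cells then accumulate protective sugars and dehydrins (hydrophilic proteins that protect membranes), and alter their membrane lipids, while photosynthesis and growth slow. Aromatic amino acids made by the shikimate pathway feed lignin, flavonoids, and indole amines such as serotonin, and the question behind the series was how low temperature changes pigment formation in the culm.

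The library totals were 33957497 to 50338658 counts in LT1d and 44066957 to 46802239 in RT1d. A gene was tested where 3 or more of the 6 libraries reached an FPKM of 1. Libraries of a group resembled each other more than those of different groups, with a correlation of log expression of 0.9543 to 0.9726 within LT1d, 0.9638 to 0.9768 within RT1d, and 0.6745 to 0.7259 between them. The third LT1d library was set apart in another way. Among 1125 genes with a mean FPKM of at least 20 whose first and second LT1d libraries differed by more than 1.4-fold, its value lay between these libraries in 1120 (99.6%), with a median position of 0.449 between the second (0) and the first (1). The same share was 54.5%, 74.7%, and 54.7% for the RT1d libraries, and it was 99.1% (2144 of 2164 genes) for the second library of RT25d, a group used here only in the comparison with Day 25. Whether this library is an independent sample cannot be told from the files, so counts without it are given for all genes and for the lists whose count of calls in either direction moved by 3 or more, and for a few others.

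**Figure D1:**
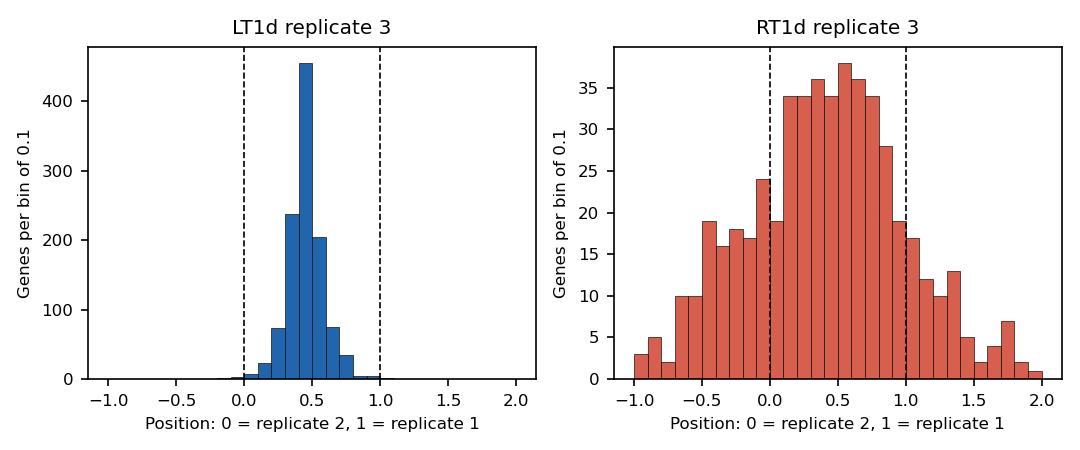
Position of the third replicate between the first and the second in genes whose first and second libraries differed by more than 1.4-fold, for LT1d and RT1d. The x axis is the position (0 is replicate 2 and 1 is replicate 1, positions beyond the axis not drawn) and the y axis is the number of genes per bin. In LT1d 1120 of 1125 genes lie between 0 and 1, against 54.7% in RT1d.

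The second property of the libraries was their composition. The 100 most abundant genes held 10.4% to 10.7% of the counts in LT1d and 8.61% to 8.88% in RT1d, and the genes at an FPKM of 1 or more numbered 23615 to 23880 in the LT1d and 26517 to 26931 in the RT1d libraries. The TMM factors were 0.848 to 0.871 in LT1d and 1.16 to 1.17 in RT1d. Across the tested genes, the median log2 fold change was -0.07 with TMM and -0.501 when libraries were scaled by their totals alone, and a fold change read from the FPKM values is lower by the same amount than the one tested. Changes are reported on the TMM scale, and where the median of a list described here turns with library-total scaling, both medians are given.

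Markers of green cells, the chlorophyll a-b binding proteins, moved with the treatment. Their summed FPKM was 19.8 to 33.2 in LT1d, 1320 to 1742 in RT1d, and 984.5 to 1653 in CK, and 25 of 25 tested genes were lower in LT1d. The sum was 1178 to 1207 after 15 days at 4 °C. Markers of epidermis and cuticle summed to 328 to 383 in LT1d against 1007 to 1250 in RT1d, and those of meristems to 344 to 353 against 612 to 667. The ranges of the secondary wall markers overlapped (105 to 186 against 85.3 to 220.5). Root markers summed to 0.217 to 0.675 in LT1d and 2.68 to 3.42 in RT1d, and pollen and flower markers summed to 51.7 to 66.9 and 121 to 158. The part of these marker changes in the results was not tested, and in whole culm tissue fewer cells of a type and less RNA per cell cannot be told apart.

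Of 27117 genes tested, 5721 (21.1%) were higher and 6461 (23.8%) were lower in LT1d than in RT1d, which makes 44.9% called in either direction, at an adjusted p of at most 0.05 and a fold change of at least 2. Higher genes were 47.0% of the calls. This share was 30.2% when libraries were scaled by their totals (4021 higher and 9292 lower), 37.4% with upper-quartile scaling (4721 and 7888), and 30.2% and 28.8% with limma on log2(FPKM + 1) and log2(FPKM + 0.1). No gene called here was called in the opposite direction under any of these settings. Without the third LT1d library 5644 genes were higher and 6118 lower. In 20249 of the 27117 tested genes the scaled counts of the groups did not overlap. Separate groups in a named gene are therefore common, and the naming rule required them of genes named for the largest change.

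KEGG pathways with at least 20 tested genes were ordered by the share of genes called, as a description. The largest shares of higher genes were in linoleic acid metabolism (11 of 20, 55.0%), MAPK signaling (168 of 371, 45.3%), indole alkaloid biosynthesis (15 of 37, 40.5%, with 13 or 35.1% lower), phenylalanine, tyrosine, and tryptophan biosynthesis (39 of 99, 39.4%), and plant–pathogen interaction (219 of 574, 38.2%). The largest shares of lower genes were in photosynthesis antenna proteins (27 of 27, 100%), photosynthesis (60 of 79, 75.9%), sesquiterpenoid and triterpenoid biosynthesis (32 of 51, 62.7%), fatty acid elongation (30 of 53, 56.6%), and biotin metabolism (16 of 30, 53.3%). Over all tested genes these shares were 21.1% and 23.8%. For GO terms, the order of higher genes began with negative regulation of nucleic acid-templated transcription (31 of 36), regulation of jasmonic acid signaling (30 of 40), the tryptophan biosynthetic process (19 of 27), regulation of defense response (31 of 51), and salicylic acid signaling (18 of 30). The order of lower genes began with light harvesting in photosystem I (28 of 28), pigment binding (27 of 27), chlorophyll binding (46 of 48), photosystem II (27 of 29), and photosystem I electron transport (20 of 22). The terms share many genes and are not independent.

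**Figure D2:**
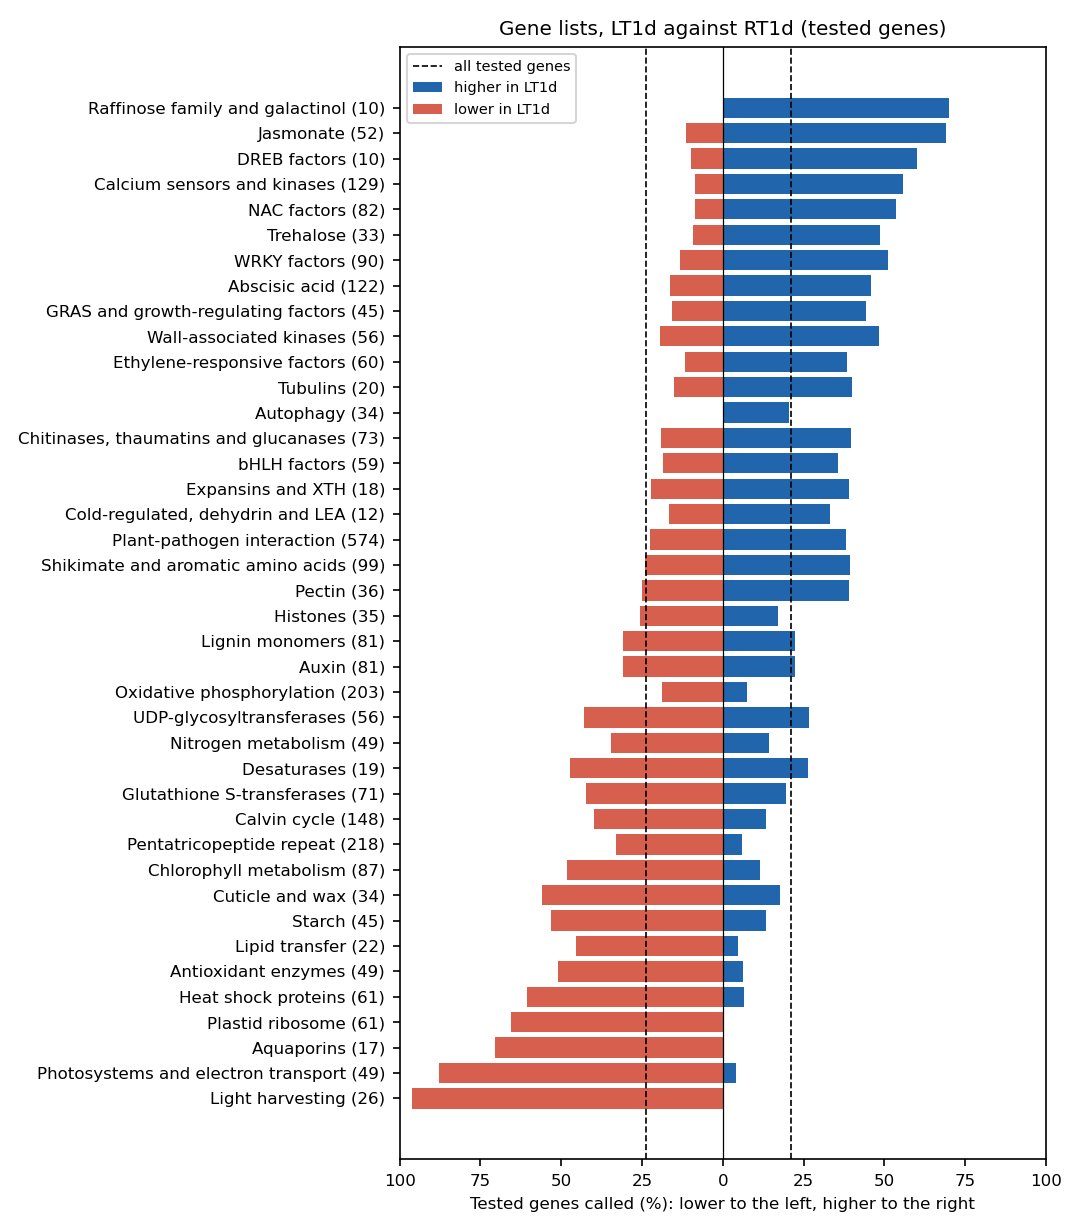
Percent of tested genes called higher (blue, right) and lower (red, left) in LT1d than in RT1d for the 20 gene lists with the most positive and the 20 with the most negative difference between these shares, with the number of tested genes in parentheses. Dashed lines mark 21.1% and 23.8% over all tested genes, raffinose and jasmonate lists reach 70% and 69.2% on the right, and light harvesting reaches 96.2% on the left.

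Photosynthesis genes were lower in LT1d. Of 26 tested light-harvesting genes, which encode the proteins that hold chlorophyll around the photosystems, 25 fell and none rose (median log2 fold change -5.43). Their summed FPKM was 101.4 to 146 in LT1d, 1428 to 1874 in RT1d, and 1048 to 1740 in CK. The most abundant of those that fell, the chlorophyll a/b binding protein gene PH02Gene04237 on scaffold 9 from 61921266 to 61924356, had an FPKM of 3.35, 1.08, and 2.29 in LT1d and 252, 210.4, and 176 in RT1d (log2 fold change -6.07, SE 0.40, edgeR adjusted p = 1.45e-05). The CP24 gene PH02Gene02202, a minor antenna protein of photosystem II, was at 0.448, 0, and 0.117 in LT1d and 74.9, 83.3, and 52.7 in RT1d (log2 fold change -7.85, SE 0.64, edgeR adjusted p = 3.83e-05). No LT1d library of either gene came near an RT1d library. The single light-harvesting gene not called, PH02Gene36977, is annotated as OHP1, a one-helix relative of the antenna proteins, and had 112, 81.6, and 91.02 in LT1d and 98.3, 132, and 108 in RT1d FPKM (log2 fold change 0.23, SE 0.15, edgeR adjusted p = 0.214), with a fold change of -0.20 on the log2 scale under library-total scaling.

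The photosystems and their electron carriers gave the same picture. Of 49 tested genes 43 fell and 2 rose (median -4.53), and 1 rose without the third LT1d library. The leaf-type ferredoxin gene PH02Gene32076, the electron acceptor of photosystem I, had 1.14, 1.73, and 1.64 in LT1d and 255, 239, and 153 in RT1d FPKM (log2 fold change -6.66, SE 0.29, edgeR adjusted p = 4.01e-06). Photosystem I subunit O (PH02Gene43486) was at 0 in all 3 LT1d libraries and at 14.9, 13.4, and 7.43 in RT1d. This is at least 8.99-fold lower against a floor of 12 counts in each library (3 read pairs of an assumed 4 counts each), which covers counting error only. In the other direction ferredoxin-6 (PH02Gene44826) had 16.8, 18.5, and 20.03 in LT1d and 9.75, 10.5, and 10.4 in RT1d FPKM (log2 fold change 1.33, SE 0.13, edgeR adjusted p = 7.89e-05), and it was no longer called when libraries were scaled by their totals.

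Carbon fixation followed in part. Of 148 tested genes of the KEGG pathway, 59 fell and 20 rose (median -0.73). A small subunit gene of Rubisco, the CO2-fixing enzyme (PH02Gene30287), had 59.04, 158, and 111 in LT1d and 421, 564, and 431 in RT1d FPKM (log2 fold change -1.62, SE 0.35, edgeR adjusted p = 0.00422). Its LT1d libraries differed widely but stayed below RT1d. Glyceraldehyde-3-phosphate dehydrogenase A of the chloroplast (PH02Gene10057) was at 0.787, 0.702, and 0.776 in LT1d and 60.5, 81.6, and 62.9 in RT1d (log2 fold change -6.003, SE 0.17, edgeR adjusted p = 1.98e-06). Phosphoenolpyruvate carboxykinase (PH02Gene32562), an enzyme of gluconeogenesis that is also listed in the pathway, rose, with 433, 431, and 447 in LT1d and 63.7, 95.5, and 97.1 in RT1d FPKM (log2 fold change 2.83, SE 0.20, edgeR adjusted p = 2.02e-05). Among chlorophyll metabolism genes 42 of 87 fell and 10 rose. The cyclase that closes the fifth ring of chlorophyll (PH02Gene16028) was at 3.29, 4.00, and 5.24 in LT1d and 109, 103, and 77.9 in RT1d FPKM (log2 fold change -4.05, SE 0.22, edgeR adjusted p = 7.71e-06).

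Genes of organelle protein synthesis were lower as well, and those of the cytosol mostly were not called. Of 61 ribosomal protein genes of organelle type, found by the names of the ribosome subunits, 40 fell and none rose (median -1.95). Their descriptions do not place every member in the plastid. Chloroplast L1 (PH02Gene16107), the most abundant of those that fell, had 13.9, 11.9, and 12.6 in LT1d and 64.8, 122, and 56.1 in RT1d FPKM (log2 fold change -2.18, SE 0.29, edgeR adjusted p = 0.000388). Of 282 cytosolic ribosomal protein genes, 15 fell and 3 rose (median -0.35), and 88 fell when libraries were scaled by their totals. Pentatricopeptide repeat genes, whose proteins process organelle RNA, fell in 72 of 218, in 67 without the third LT1d library, and rose in 13 (median -0.56). The summed FPKM of green-cell markers given above differed between the same libraries, and its part in these lists was not tested.

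The tryptophan branch of the shikimate pathway was higher in LT1d. The whole list of shikimate and aromatic amino acid genes had 39 genes higher and 24 lower of 99, and its median of 0.26 turned to -0.17 with library-total scaling. Its tryptophan enzymes, a subgroup formed after values were seen, had 15 higher and 1 lower of 17 (median 3.56, 3.13 with library-total scaling). Their summed FPKM was 6252 to 7190 in LT1d, 540 to 808 in RT1d, and 828 to 1379 in CK. The LT1d range lay above both other groups.

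The members are described in the order of the pathway, and those other than PH02Gene23711, PH02Gene25595, and PH02Gene36586 were chosen after their values were seen. Anthranilate synthase commits chorismate to tryptophan. Its alpha subunit gene PH02Gene39792 (scaffold 15 from 55542936 to 55549731) had 665, 728, and 702 in LT1d and 74.8, 47.9, and 88.2 in RT1d FPKM (log2 fold change 3.797, SE 0.25, edgeR adjusted p = 1.47e-05) and its beta subunit gene PH02Gene16376 (scaffold 24 from 42423330 to 42426907) had 803, 831, and 819 in LT1d and 35.9, 27.4, and 47.6 in RT1d (log2 fold change 4.95, SE 0.23, edgeR adjusted p = 5.11e-06). For both, no LT1d library came near an RT1d library, and CK was at 108, 176, and 178 for the alpha and 54.2, 25.2, and 36.3 for the beta subunit. Anthranilate phosphoribosyltransferase (PH02Gene34586) had 591, 676, and 626 in LT1d and 111, 64.5, and 99.6 in RT1d FPKM (log2 fold change 3.27, SE 0.22, edgeR adjusted p = 1.74e-05). The isomerase that follows it (PH02Gene38743) had the smallest change of the steps named here, 62.00, 67.2, and 64.5 in LT1d and 27.5, 24.4, and 26.8 in RT1d (log2 fold change 1.78, SE 0.10, edgeR adjusted p = 8.57e-06). The groups did not overlap in either gene. Indole-3-glycerol phosphate synthase (PH02Gene25595, scaffold 19 from 18086374 to 18089901), which closes the indole ring, had 280.1, 377, and 339 in LT1d and 4.99, 3.90, and 7.51 in RT1d FPKM (log2 fold change 6.41, SE 0.31, edgeR adjusted p = 5.43e-06). The tryptophan synthase alpha chain gene PH02Gene23711 (scaffold 4 from 50356632 to 50360277) had 1026, 1337, and 1184 in LT1d and 85.9, 52.3, and 97.7 in RT1d (log2 fold change 4.397, SE 0.28, edgeR adjusted p = 1.33e-05), and was the fifth most abundant gene of LT1d. Its CK values of 62.9, 65.05, and 77.7 lay within the range of RT1d. The beta chain gene PH02Gene10139 (scaffold 18 from 15096166 to 15100520), which joins indole to serine, had 935, 934, and 921 in LT1d and 37.3, 27.1, and 41.97 in RT1d (log2 fold change 5.197, SE 0.21, edgeR adjusted p = 3.66e-06). Shikimate kinase 3 (PH02Gene36586), upstream of chorismate, went the other way with 45.3, 32.6, and 36.7 in LT1d and 187, 165, and 272 in RT1d FPKM (log2 fold change -1.96, SE 0.21, edgeR adjusted p = 0.000139).

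Genes of indole amine synthesis lay next in the pathway. Aromatic-L-amino-acid decarboxylases remove the carboxyl group of tryptophan or tyrosine, and the descriptions do not tell which substrate a member uses. The gene PH02Gene42909 (scaffold 22 from 54002343 to 54004248) had 259, 255, and 257 in LT1d and 8.13, 5.35, and 15.2 in RT1d FPKM (log2 fold change 5.23, SE 0.40, edgeR adjusted p = 2.79e-05), with CK at 1.26, 1.14, and 1.66. The gene PH02Gene31517 (scaffold 18 from 15679858 to 15687862) had 198, 254, and 228 in LT1d and 6.19, 5.84, and 7.98 in RT1d (log2 fold change 5.57, SE 0.21, edgeR adjusted p = 2.93e-06), with CK at 0.991, 1.27, and 0.968. In both, LT1d lay above RT1d and CK in every library. The other 2 members called higher, chosen after their values were seen, were PH02Gene26873 with 43.1, 47.2, and 43.3 in LT1d and 1.67, 1.13, and 1.62 in RT1d FPKM (log2 fold change 5.397, SE 0.18, edgeR adjusted p = 2.39e-06) and PH02Gene26874 with 24.1, 36.4, and 33.2 in LT1d and 10.1, 6.28, and 18.5 in RT1d (log2 fold change 1.91, SE 0.38, edgeR adjusted p = 0.00303). Of 7 tested genes in this list 4 rose and 2 fell, and among the latter a serotonin N-acetyltransferase (PH02Gene02432), which acetylates serotonin toward melatonin, had 4.07, 4.39, and 4.94 in LT1d and 16.01, 17.1, and 13.6 in RT1d FPKM (log2 fold change -1.31, SE 0.15, edgeR adjusted p = 0.000163). On scaffold 18 the tryptophan synthase beta gene starts at 15096166 and the decarboxylase genes PH02Gene31517, PH02Gene26873, and PH02Gene26874 start at 15679858, 15838860, and 15854724. The members carry like descriptions, and the way reads shared between copies were counted was not stated in the methods.

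**Figure D3:**
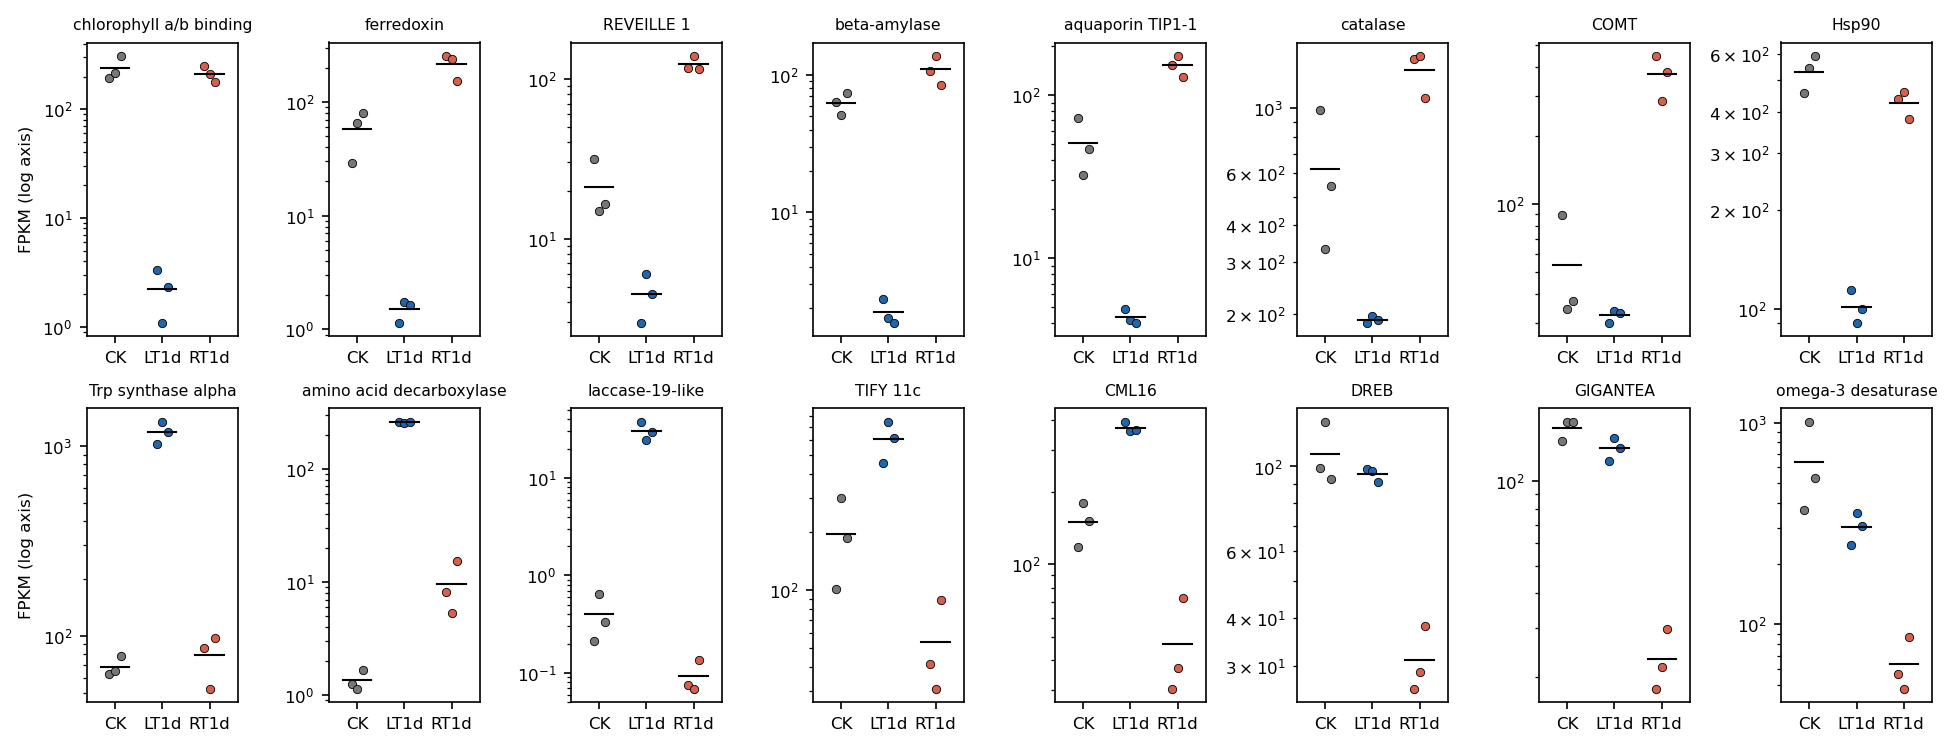
FPKM of 16 genes in each CK, LT1d, and RT1d library (points), on log axes that differ between panels, with the group mean as a line. LT1d lies below RT1d in the upper 8 panels and above it in the lower 8. The tryptophan synthase alpha, decarboxylase, laccase-19-like, TIFY 11c, and CML16 genes have all LT1d points above CK as well.

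Oxidative enzymes and lignin genes moved in both directions. The laccase-19-like gene PH02Gene35203 (scaffold 1 from 11265143 to 11268296), a member of the copper oxidases that couple phenols, had 37.6, 24.3, and 29.5 in LT1d and 0.0750, 0.0683, and 0.136 in RT1d FPKM (log2 fold change 8.76, SE 0.28, edgeR adjusted p = 2.31e-06), while CK was at 0.213, 0.650, and 0.331. A pair of laccase-3 genes was lower in LT1d than in RT1d, and in both the CK mean was nearer to LT1d. PH02Gene17276 was at 0 in LT1d and at 2.26, 2.66, and 11.7 in RT1d, at least 31.6-fold lower, with CK at 0, 0.0215, and 0. PH02Gene03656, chosen after its values were seen, was at 0 in LT1d and at 3.03, 2.47, and 10.4 in RT1d, at least 31.6-fold lower. In both genes the third RT1d library was the highest. In total 4 of 15 laccase genes rose (26.7%) and 2 fell (13.3%), beside 21.1% and 23.8% over all tested genes. Their median of 0.41 turned to -0.03 with library-total scaling (3 higher and 3 lower). Class III peroxidases, the heme enzymes of the cell wall, rose in 19 (38.8%) and fell in 16 (32.7%) of 49. The cationic peroxidase SPC4-like gene PH02Gene06848 was the most abundant gene of LT1d with 2441, 2251, and 2339.7 in LT1d and 889, 1019.8, and 1007 in RT1d FPKM (log2 fold change 1.75, SE 0.15, edgeR adjusted p = 4.95e-05). Peroxidase 2 (PH02Gene48374) had 23.8, 18.1, and 20.99 in LT1d and 0, 0.201, and 0.541 in RT1d (log2 fold change 6.85, SE 0.71, edgeR adjusted p = 0.000110), and peroxidase POC1 (PH02Gene17966) fell from RT1d values that varied widely, with 1.43, 3.89, and 4.27 in LT1d and 197, 284, and 63.4 in RT1d (log2 fold change -5.34, SE 0.68, edgeR adjusted p = 0.000306).

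Of the lignin monomer genes, 18 of 81 rose (22.2%) and 25 fell (30.9%), and without the third LT1d library these counts were 12 and 20. Over all tested genes the shares were 21.1% and 23.8%. Caffeic acid O-methyltransferase PH02Gene02562, which methylates lignin precursors, had 29.8, 33.9, and 32.95 in LT1d and 449.8, 286, and 383 in RT1d FPKM (log2 fold change -3.04, SE 0.18, edgeR adjusted p = 1.12e-05). A second gene of the same description, PH02Gene05362, chosen after its values were seen, had 26.7, 24.04, and 30.6 in LT1d and 234, 202, and 224 in RT1d (log2 fold change -2.54, SE 0.13, edgeR adjusted p = 5.71e-06). Hydroxycinnamoyltransferase 2 (PH02Gene48963), which acts earlier in the same pathway, had 60.4, 44.8, and 52.9 in LT1d and 13.6, 14.04, and 25.2 in RT1d (log2 fold change 2.06, SE 0.26, edgeR adjusted p = 0.000296). The phenylalanine ammonia-lyase gene PH02Gene08453, chosen after its values were seen, had 30.7, 2.09, and 15.3 in LT1d and 118, 53.6, and 226 in RT1d (log2 fold change -2.58, SE 0.88, edgeR adjusted p = 0.0322), with LT1d libraries far apart, and the call was lost without the third LT1d library (adjusted p = 0.0944), without the first RT1d library (0.0583), or without the third (0.0934). Flavonoid genes rose in 33 (33.7%) and fell in 30 (30.6%) of 98 (median 0.397), and with library-total scaling they rose in 22 and fell in 40 (median -0.04). Without the third LT1d library 30 rose. Of the polyphenol oxidases, which oxidize phenols to quinones, PH02Gene01841 had 0.0459, 0.232, and 0.294 in LT1d and 2.44, 1.60, and 4.75 in RT1d FPKM against 0, 54.97, and 71.5 in CK (log2 fold change -3.43, SE 0.67, edgeR adjusted p = 0.00270), and PH02Gene03906 had 0.832, 0.649, and 0.764 in LT1d and 1.70, 1.45, and 1.13 in RT1d (log2 fold change -0.44, SE 0.35, edgeR adjusted p = 0.285) and was not called.

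Jasmonate genes had one of the highest shares of rises. This hormone is made from linolenic acid by lipoxygenases, allene oxide synthase, allene oxide cyclase, and 12-oxophytodienoate reductase, and TIFY (JAZ) proteins repress its signaling and are among its first targets in Arabidopsis. Of 52 tested genes 36 rose and 6 fell (median 1.91, 1.48 with library-total scaling), and 33 rose without the third LT1d library. The subgroups, formed after values were seen, differed. Rises were called in 7 of 8 lipoxygenases, 4 of 4 allene oxide synthases, 2 of 2 allene oxide cyclases, and 19 of 21 TIFY genes, with no fall in any of these. The 12-oxophytodienoate reductases had 4 rises and 6 falls among 17. TIFY 11c (PH02Gene40897) had 452, 743, and 614 in LT1d and 41.5, 30.7, and 88.9 in RT1d FPKM (log2 fold change 3.97, SE 0.45, edgeR adjusted p = 0.000166) and lipoxygenase 8 (PH02Gene47636) had 162, 151, and 153 in LT1d and 3.99, 5.17, and 6.29 in RT1d (log2 fold change 5.396, SE 0.21, edgeR adjusted p = 3.37e-06). Its neighbour PH02Gene47635, annotated as LOX7 and at 0 in RT1d, had 8.83, 15.8, and 15.2 in LT1d, at least 20.97-fold higher. Allene oxide synthase 2 (PH02Gene19170), chosen after its values were seen, had 28.6, 50.2, and 41.2 in LT1d and 6.36, 3.86, and 5.39 in RT1d (log2 fold change 3.43, SE 0.27, edgeR adjusted p = 3.38e-05). The summed FPKM of the TIFY genes was 2502 to 3624 in LT1d and 551 to 873 in RT1d, and CK, at 2533 to 3927, overlapped LT1d.

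Calcium and abscisic acid (ABA) genes also rose more often than they fell. Of 129 calcium sensors and kinases, which decode calcium pulses, 72 rose and 11 fell (median 1.57). The rises spread over 34 of 51 calmodulin-like and other calcium-binding proteins, 22 of 30 calcium-dependent protein kinases, and 12 of 29 CBL-interacting protein kinases. The calcium-binding protein CML16 (PH02Gene22224) had 392, 358, and 361 in LT1d and 30.3, 36.9, and 72.5 in RT1d FPKM (log2 fold change 3.47, SE 0.33, edgeR adjusted p = 7.82e-05). CBL-interacting protein kinase 31 (PH02Gene28664) had 77.5, 44.7, and 55.4 in LT1d and 1.15, 1.12, and 1.81 in RT1d (log2 fold change 5.91, SE 0.30, edgeR adjusted p = 6.10e-06), with both groups apart. In the ABA list 56 of 122 rose and 20 fell, and 99 of the 122 were type 2C protein phosphatases, a family with members that inhibit ABA signaling. These phosphatases rose in 46 and fell in 17, the PYL receptors rose in 2 and fell in 1 of 5, and the SAPK kinases of ABA signaling rose in 3 and fell in 1 of 11. Protein phosphatase 2C 68 (PH02Gene45097) had 259.7, 239, and 242 in LT1d and 31.5, 33.6, and 43.8 in RT1d FPKM (log2 fold change 3.25, SE 0.16, edgeR adjusted p = 6.14e-06). Among the ABA receptors PYL9-like (PH02Gene39925) had 40.6, 44.5, and 42.5 in LT1d and 1.77, 1.94, and 3.37 in RT1d (log2 fold change 4.65, SE 0.27, edgeR adjusted p = 9.34e-06), while PYL3-like (PH02Gene36902) had 17.3, 19.8, and 19.6 in LT1d and 91.8, 88.8, and 83.1 in RT1d (log2 fold change -1.73, SE 0.11, edgeR adjusted p = 1.19e-05). These receptors moved in opposite directions.

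Other hormone lists were mixed. For ethylene, 1-aminocyclopropane-1-carboxylate oxidase (PH02Gene02494), which makes ethylene, had 124, 102, and 106 in LT1d and 4.70, 2.73, and 9.92 in RT1d FPKM (log2 fold change 4.74, SE 0.46, edgeR adjusted p = 8.52e-05), while an ACC synthase (PH02Gene13031), which makes its precursor, had 4.70, 3.53, and 4.93 in LT1d and 27.1, 28.04, and 22.2 in RT1d (log2 fold change -2.07, SE 0.17, edgeR adjusted p = 3.71e-05). Cytokinin riboside 5'-monophosphate phosphoribohydrolases, which release active cytokinin, rose in 6 and fell in 1 of 11, and PH02Gene22722 had 68.96, 64.5, and 69.9 in LT1d and 1.87, 0.721, and 3.17 in RT1d FPKM (log2 fold change 5.62, SE 0.48, edgeR adjusted p = 4.67e-05). Auxin genes fell in 25 (30.9%), or 22 without the third LT1d library, and rose in 18 (22.2%) of 81. These shares were 23.8% and 21.1% over all tested genes. The efflux carrier component 1c (PH02Gene10041) had 0.0254, 0, and 0.0335 in LT1d and 14.8, 10.4, and 14.2 in RT1d FPKM. It was one of the 10 largest falls among called genes with separate groups and a mean FPKM of at least 10 in RT1d. Its CK values of 0.207, 0.0981, and 0.122 were near 0 too, far below RT1d. Gibberellin genes rose in 4 and fell in 3 of 12, the GID1 receptor (PH02Gene27638) being at 12.5, 14.1, and 15.9 in LT1d and 60.6, 63.2, and 47.1 in RT1d (log2 fold change -1.52, SE 0.15, edgeR adjusted p = 9.93e-05). Of 7 brassinosteroid genes 1 was called.

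The WRKY, NAC, and GRAS families of transcription factors held larger shares of rises than all genes. Of 90 WRKY genes 46 rose and 12 fell (median 1.07), of 82 NAC genes 44 rose and 7 fell (median 1.11), and of 45 GRAS and growth-regulating factors 20 rose and 7 fell. Without the third LT1d library 39 NAC genes rose. The WRKY62-like gene PH02Gene42845 had 330.4, 524, and 429 in LT1d and 24.1, 24.8, and 40.3 in RT1d FPKM (log2 fold change 4.33, SE 0.30, edgeR adjusted p = 1.77e-05) and WRKY57 (PH02Gene33364) had 85.1, 66.1, and 69.5 in LT1d and 0.631, 0, and 0.340 in RT1d (log2 fold change 8.23, SE 0.54, edgeR adjusted p = 1.46e-05). NAC 48-like (PH02Gene10707) had 325, 494, and 411 in LT1d and 33.7, 46.9, and 46.8 in RT1d (log2 fold change 3.76, SE 0.24, edgeR adjusted p = 1.31e-05). Every LT1d library of these genes was above every RT1d library. For WRKY57 this was a condition of its choice, and the groups did not overlap in 20249 of all 27117 tested genes. The bZIP factors rose in 9 (29.0%) and fell in 9 (29.0%) of 31 (median 0.15), and with library-total scaling in 8 and 13 (median -0.28). Among them PH02Gene25223 had 552, 574, and 580.2 in LT1d and 22.1, 34.5, and 52.7 in RT1d FPKM (log2 fold change 4.44, SE 0.32, edgeR adjusted p = 2.24e-05). The bZIP 44 gene PH02Gene06509 had 63.7, 33.02, and 50.7 in LT1d and 234, 146, and 173 in RT1d (log2 fold change -1.43, SE 0.25, edgeR adjusted p = 0.00152). Ethylene-responsive factors rose in 23 and fell in 7 of 60, and their median of 0.398 turned to -0.04 with library-total scaling. Within them, the ERF1-like gene PH02Gene14168 had 486, 525, and 513 in LT1d and 97.9, 67.5, and 105 in RT1d (log2 fold change 2.98, SE 0.19, edgeR adjusted p = 1.45e-05) and ERF060 (PH02Gene08579) had 15.6, 10.2, and 13.5 in LT1d and 57.8, 73.03, and 87.9 in RT1d (log2 fold change -1.998, SE 0.21, edgeR adjusted p = 0.000109). MYB genes rose in 34 (31.5%) and fell in 28 (25.9%) of 108 (median 0.09, -0.34 with library-total scaling), and 25 fell without the third LT1d library. Homeobox genes rose in 25 (22.9%) and fell in 27 (24.8%) of 109 (median 0.04, -0.39 with library-total scaling). The homeobox shares were near the 21.1% and 23.8% over all tested genes.

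Clock genes moved in both directions, 12 of 44 rising (27.3%) and 15 falling (34.1%), beside 21.1% and 23.8% over all tested genes. In Arabidopsis and rice, REVEILLE proteins act in the morning, and GIGANTEA, TOC1, and other pseudo-response regulators act later in the day. REVEILLE 1 (PH02Gene29434) had 2.95, 5.98, and 4.51 in LT1d and 118, 139.6, and 116 in RT1d FPKM (log2 fold change -4.31, SE 0.28, edgeR adjusted p = 1.47e-05). GIGANTEA (PH02Gene42221) had 118, 144, and 132 in LT1d and 18.1, 21.7, and 29.6 in RT1d (log2 fold change 2.99, SE 0.22, edgeR adjusted p = 2.28e-05), with CK at 139.7, 163, and 163. TOC1-like PH02Gene18684 and PRR73 (PH02Gene18607), chosen after their values were seen, had 98.5, 111, and 111 in LT1d and 19.98, 20.5, and 24.2 in RT1d (log2 fold change 2.79, SE 0.14, edgeR adjusted p = 5.34e-06) and 55.5, 65.9, and 62.8 in LT1d and 8.45, 11.7, and 11.8 in RT1d (log2 fold change 3.01, SE 0.18, edgeR adjusted p = 9.83e-06). GIGANTEA, TOC1, and the pseudo-response regulators together rose in 5 of 7, with none lower, while constans-like genes fell in 10 of 15 and rose in 2. Of the 9 REVEILLE genes 3 fell and none rose. The hour of sampling was not given, and its part in these values was not tested.

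Cold-regulated, dehydrin, and late embryogenesis abundant (LEA) genes protect cells against freezing and drying. Of 12 tested genes 4 rose and 2 fell, and without the third LT1d library 3 rose. The dehydrin WCOR410c (PH02Gene13412), named after a wheat cold acclimation protein, had 395, 859, and 648 in LT1d and 222, 248, and 347 in RT1d FPKM and CK values of 332, 1069.9, and 700.1 (log2 fold change 1.71, SE 0.32, edgeR adjusted p = 0.00217). The LT1d and CK libraries of this gene overlapped. Lea5-D (PH02Gene23248) had 128, 122, and 126 in LT1d and 9.64, 8.56, and 14.01 in RT1d (log2 fold change 4.03, SE 0.21, edgeR adjusted p = 6.69e-06), and COR413 of the chloroplast inner membrane (PH02Gene04238) had 1.21, 1.55, and 0.711 in LT1d and 12.3, 12.4, and 7.31 in RT1d (log2 fold change -2.704, SE 0.38, edgeR adjusted p = 0.000504). Among DREB factors 6 of 10 rose and 1 fell. DREB2B-like (PH02Gene42289) had 98.7, 97.2, and 91.2 in LT1d and 26.1, 28.8, and 38.1 in RT1d (log2 fold change 2.11, SE 0.16, edgeR adjusted p = 2.94e-05), and CK was at 99.3, 131, and 92.9. DREB1 (PH02Gene39376) and DREB2C-like (PH02Gene45634), chosen after their values were seen, had 7.97, 10.8, and 8.33 in LT1d and 4.41, 4.76, and 4.55 in RT1d (log2 fold change 1.46, SE 0.17, edgeR adjusted p = 0.000207) and 9.55, 3.97, and 5.74 in LT1d and 0, 0.282, and 0.188 in RT1d (log2 fold change 5.74, SE 0.79, edgeR adjusted p = 0.000451). The DREB1B gene PH02Gene26204 was lower at 0.288, 0.0593, and 0 in LT1d and 1.03, 1.77, and 13.1 in RT1d, where the third RT1d library held most of the signal (log2 fold change -4.805, SE 1.30, edgeR adjusted p = 0.0125), and the call was lost with the replicate number as a block (adjusted p = 0.0553).

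Raffinose family and galactinol genes, which make osmoprotective oligosaccharides, rose in 7 of 10 with none lower, and trehalose genes in 16 of 33 with 3 lower. Galactinol synthase 2 occurred in several copies. PH02Gene25695 had 123, 152, and 143 in LT1d and 58.1, 57.9, and 48.6 in RT1d FPKM (log2 fold change 1.83, SE 0.14, edgeR adjusted p = 2.42e-05) and PH02Gene28670, chosen after its values were seen, had 79.1, 163, and 121 in LT1d and 13.01, 17.9, and 15.04 in RT1d (log2 fold change 3.47, SE 0.30, edgeR adjusted p = 4.58e-05), while PH02Gene36618, chosen likewise, had 48.6, 49.8, and 48.4 in LT1d and 85.02, 127, and 100.7 in RT1d (log2 fold change -0.61, SE 0.16, edgeR adjusted p = 0.0108) and was not called. All 5 galactinol–sucrose galactosyltransferases (raffinose synthases) were higher, PH02Gene11640 with 45.7, 53.6, and 49.3 in LT1d and 2.99, 3.32, and 7.27 in RT1d (log2 fold change 3.93, SE 0.37, edgeR adjusted p = 6.81e-05). A trehalose-phosphate synthase (PH02Gene22525) had 179, 147, and 150.4 in LT1d and 5.23, 8.76, and 15.97 in RT1d FPKM (log2 fold change 4.47, SE 0.42, edgeR adjusted p = 6.81e-05). Starch genes went the other way, with 24 of 45 lower and 6 higher (median -1.06), and 20 lower without the third LT1d library. Starch synthases fell in 10 of 14 and isoamylases in 6 of 6. Beta-amylases, which release maltose from starch, differed from gene to gene. PH02Gene44774 had 2.35, 1.70, and 1.56 in LT1d and 107, 138, and 84.99 in RT1d (log2 fold change -5.38, SE 0.25, edgeR adjusted p = 4.80e-06) and PH02Gene14201 had 40.05, 16.6, and 26.8 in LT1d and 1.06, 1.33, and 1.52 in RT1d (log2 fold change 4.88, SE 0.34, edgeR adjusted p = 1.91e-05). Vacuolar invertase (PH02Gene20078) had 42.8, 99.01, and 70.96 in LT1d and 3.24, 1.13, and 3.78 in RT1d (log2 fold change 5.197, SE 0.53, edgeR adjusted p = 0.000107), and sugar transport protein 1-like (PH02Gene27077) had 100.7, 192, and 148 in LT1d and 5.70, 9.57, and 16.9 in RT1d (log2 fold change 4.25, SE 0.46, edgeR adjusted p = 0.000141).

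**Figure D4:**
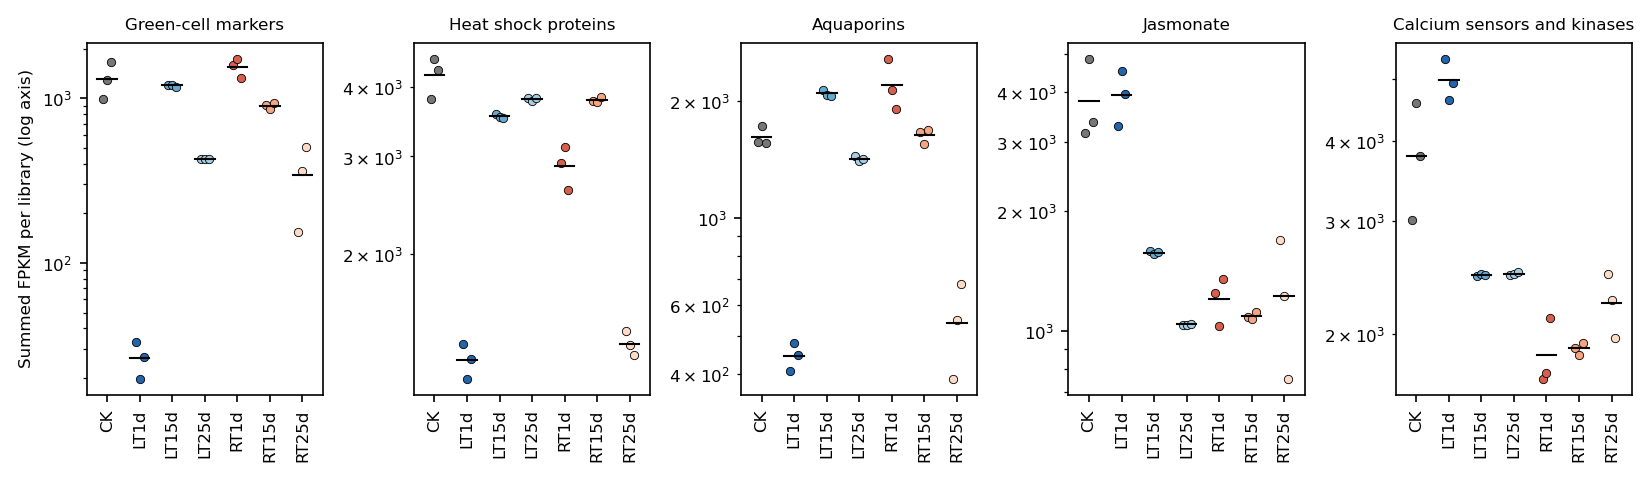
Summed FPKM of 5 gene lists in each library (points) of the 7 groups, on log axes that differ between panels, with the group mean as a line. The green-cell markers are at 19.8 to 33.2 in LT1d and at 153 or more in every other library, and the jasmonate sums of LT1d and CK overlap, at 3275 to 4528 and 3151 to 4860.

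Heat shock proteins, the chaperones that refold proteins, fell in 37 and rose in 4 of 61 (median -1.36), and 33 fell without the third LT1d library. Small heat shock proteins fell in 16 of 21, and Hsp90 and its cofactors in 12 of 15. Hsp90 (PH02Gene45866) had 114, 90.2, and 99.6 in LT1d and 438, 459, and 380 in RT1d FPKM and CK values of 456, 545, and 594 (log2 fold change -1.59, SE 0.13, edgeR adjusted p = 3.44e-05). The LT1d libraries were lower than both. A 17.9 kDa class I gene (PH02Gene00227), chosen after its values were seen, had 7.80, 2.35, and 4.86 in LT1d and 128, 179, and 155 in RT1d (log2 fold change -4.44, SE 0.38, edgeR adjusted p = 4.66e-05). An exception was heat shock cognate 70 kDa protein 2 (PH02Gene00168), with 457, 316, and 387 in LT1d and 199, 182, and 194 in RT1d FPKM (log2 fold change 1.49, SE 0.15, edgeR adjusted p = 0.000107). Heat stress transcription factors split, 12 rising and 12 falling of 32 (median 0.11, -0.33 with library-total scaling), with A-3 (PH02Gene29649) at 73.8, 93.8, and 85.3 in LT1d and 12.1, 15.7, and 19.4 in RT1d (log2 fold change 2.91, SE 0.21, edgeR adjusted p = 2.26e-05) and A-2c (PH02Gene23029) at 5.42, 3.38, and 5.16 in LT1d and 56.3, 75.3, and 61.4 in RT1d (log2 fold change -3.31, SE 0.21, edgeR adjusted p = 1.24e-05).

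Of 19 tested desaturases, which add double bonds to fatty acids, 9 fell and 5 rose. In subgroups formed after values were seen, chloroplast desaturases fell in 6 of 8, while both omega-3 desaturases of the endoplasmic reticulum, which add the third double bond of linolenic acid, rose. PH02Gene00068 had 249, 357, and 309 in LT1d and 56.96, 47.7, and 86.1 in RT1d FPKM (log2 fold change 2.75, SE 0.27, edgeR adjusted p = 8.03e-05) and PH02Gene23551, chosen after its values were seen, had 137, 178, and 158 in LT1d and 22.6, 22.99, and 36.9 in RT1d (log2 fold change 3.003, SE 0.24, edgeR adjusted p = 3.24e-05). The summed FPKM of both was 628 to 1664 in CK, above the LT1d range of 386 to 535. Cuticle and wax genes, the same genes as the epidermis and cuticle markers above, fell in 19 and rose in 6 of 34 (median -1.67). They include 3-ketoacyl-CoA synthases, which elongate wax precursors, such as PH02Gene05497 with 16.7, 39.4, and 30.4 in LT1d and 163, 171, and 216 in RT1d FPKM (log2 fold change -2.18, SE 0.32, edgeR adjusted p = 0.000620). ECERIFERUM 3 (PH02Gene34552), which makes wax alkanes, rose, with 85.9, 74.2, and 77.7 in LT1d and 25.9, 23.4, and 11.2 in RT1d (log2 fold change 2.46, SE 0.29, edgeR adjusted p = 0.000212). Genes described as aquaporins, the water channels of the plasma and vacuolar membranes, fell in 12 of 17 and none rose (median -1.500), and under the wider GO term of water channel activity 24 of 33 fell and 3 rose. TIP1-1 (PH02Gene11024) had 4.91, 4.18, and 4.01 in LT1d and 153, 174, and 129.8 in RT1d FPKM (log2 fold change -4.64, SE 0.16, edgeR adjusted p = 2.54e-06), PIP1-1 (PH02Gene00514), chosen after its values were seen, had 69.2, 90.1, and 80.3 in LT1d and 665, 590.0, and 551 in RT1d (log2 fold change -2.43, SE 0.16, edgeR adjusted p = 1.40e-05), and the water channel protein gene PH02Gene33633, which the list of aquaporins does not hold, had 43.7, 211, and 137 in LT1d and 1466, 1036, and 703 in RT1d (log2 fold change -2.53, SE 0.56, edgeR adjusted p = 0.00479). Lipid transfer proteins fell in 10 and rose in 1 of 22. The gene that rose, PH02Gene08747, had 524, 679, and 616 in LT1d and 89.6, 108, and 223 in RT1d FPKM (log2 fold change 2.59, SE 0.36, edgeR adjusted p = 0.000474). The summed FPKM of the list did not fall, with overlapping ranges of 833.5 to 983 in LT1d and 671.7 to 967.6 in RT1d.

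Antioxidant enzyme genes fell in 25 and rose in 3 of 49 (median -1.097), with superoxide dismutases lower in 6 of 9 and peroxiredoxins in 7 of 11. Catalase (PH02Gene05658), which breaks down hydrogen peroxide and was the second most abundant gene of RT1d, had 186, 196, and 190.2 in LT1d and 1465, 1505, and 1084 in RT1d FPKM (log2 fold change -2.34, SE 0.17, edgeR adjusted p = 2.22e-05). A monodehydroascorbate reductase (PH02Gene44389), which regenerates ascorbate, rose, with 275, 240.1, and 260.2 in LT1d and 138, 130.1, and 119.7 in RT1d (log2 fold change 1.48, SE 0.11, edgeR adjusted p = 2.12e-05). Glutathione S-transferases fell in 30 and rose in 14 of 71. Ubiquinol (alternative) oxidases, which bypass the cytochrome chain of mitochondria, were tested in 3 genes. PH02Gene02263 rose, with 28.7, 28.8, and 27.6 in LT1d and 8.99, 7.37, and 7.78 in RT1d (log2 fold change 2.300, SE 0.11, edgeR adjusted p = 5.11e-06), and PH02Gene10197 rose by 1.05 on the log2 scale but was not called with library-total scaling, while PH02Gene08774 had 2.34, 2.05, and 3.14 in LT1d and 6.79, 10.3, and 8.19 in RT1d (log2 fold change -1.26, SE 0.24, edgeR adjusted p = 0.00244). Cytochrome P450 genes rose in 23 (29.5%) and fell in 29 (37.2%) of 78, beside 21.1% and 23.8% over all tested genes.

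Plant–pathogen interaction genes rose in 219 and fell in 129 of 574, and their median of 0.34 turned to -0.09 with library-total scaling. Without the third LT1d library 119 fell. This KEGG term includes calcium sensors, WRKY genes, and Hsp90, which are counted above too. Wall-associated kinases, receptors that contact pectin, rose in 27 and fell in 11 of 56 (median 0.93). NLR immune receptors rose in 67 (33.5%) and fell in 45 (22.5%) of 200 (median 0.31), which turned to 47 and 65 with library-total scaling (median -0.13). Within this list RPM1 (PH02Gene36815) had 94.6, 60.4, and 73.6 in LT1d and 1.58, 1.65, and 2.79 in RT1d FPKM (log2 fold change 5.72, SE 0.30, edgeR adjusted p = 7.05e-06). Pathogenesis-related protein 1 (PH02Gene38178) had 632, 712, and 687 in LT1d and 75.3, 65.4, and 165 in RT1d FPKM (log2 fold change 3.21, SE 0.37, edgeR adjusted p = 0.000181) and thaumatin-like protein 1b (PH02Gene28313) had 140.2, 234, and 186 in LT1d and 0.932, 0.504, and 2.18 in RT1d (log2 fold change 7.76, SE 0.58, edgeR adjusted p = 2.48e-05). The LT1d libraries of both exceeded every RT1d library. LRR and other receptor kinases rose in 137 (31.4%) and fell in 141 (32.3%) of 436 (median 0.07), and with library-total scaling in 112 and 172 (median -0.37). The shares over all tested genes were 21.1% and 23.8%. Without the third LT1d library 137 fell.

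The shares of called genes were below the background of 21.1% and 23.8% for the spliceosome (50 higher and 46 lower of 421), the proteasome (14 and 14 of 142), ribosome biogenesis (25 and 19 of 200), and DNA replication (20 and 17 of 98). Their medians of 0.11, 0.07, 0.08, and 0.03 turned to -0.33, -0.37, -0.36, and -0.41 with library-total scaling. Without the third LT1d library 43, 11, and 16 genes of the first 3 lists fell. The named higher genes of the spliceosome list, the Hsp70 gene PH02Gene00168 and the ethylene-responsive factor ABR1 (PH02Gene22321), are not splicing factors by description. Cyclins and division kinesins rose in 19 and fell in 14 of 68, and tubulins rose in 8 and fell in 3 of 20. Cellulose synthases rose in 8 and fell in 5 of 26 (median 0.297, -0.14 with library-total scaling), and pectin genes rose in 14 and fell in 9 of 36. Autophagy genes rose in 7 of 34, and 2 with library-total scaling. Of the 7 proline genes 3 rose, both proline dehydrogenases, which break proline down, and PH02Gene37294, a delta-1-pyrroline-5-carboxylate synthase of its synthesis, with 26.9, 22.1, and 25.9 in LT1d and 14.9, 10.4, and 11.6 in RT1d FPKM (log2 fold change 1.503, SE 0.15, edgeR adjusted p = 8.02e-05).

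Rises and falls were ranked among called genes with separate groups and a mean FPKM of at least 10 in the higher group. Among the 10 largest fitted rises, which depend on the prior count where a group is at 0, were the LOX7 gene PH02Gene47635 given above, a flavin-containing monooxygenase (PH02Gene40890) at 0 in RT1d and at 18.4, 11.4, and 13.2 FPKM in LT1d (at least 139.9-fold higher), and 2 neighbouring genes of unknown function on scaffold 18, PH02Gene31502 and PH02Gene31500. PH02Gene31502, at 0 in RT1d, was at 14.1, 11.3, and 12.99 (at least 37.2-fold higher). PH02Gene31500 was at 59.7, 44.9, and 54.2 in LT1d and 0.134, 0, and 0 in RT1d. The NRT1/PTR FAMILY 8.3-like gene PH02Gene27224, of a family that transports nitrate and peptides, had 146, 177, and 164 in LT1d and 0.359, 0.370, and 0.310 in RT1d (log2 fold change 9.33, SE 0.18, edgeR adjusted p = 1.45e-06). ABC transporter A family member 8-like genes PH02Gene43681 and PH02Gene41405 had 264, 87.2, and 164 in LT1d and 0.837, 1.28, and 1.75 in RT1d (log2 fold change 7.53, SE 0.53, edgeR adjusted p = 1.98e-05) and 31.2, 19.3, and 23.9 in LT1d and 0.159, 0, and 0.344 in RT1d (log2 fold change 7.68, SE 0.75, edgeR adjusted p = 8.36e-05). The 10 largest fitted falls included 3 genes at 0 in LT1d described as hypothetical proteins, PH02Gene21909, PH02Gene26100, and PH02Gene32877, which were at least 47.6-fold, 25.7-fold, and 22.6-fold lower, and which were at or near 0 in CK too.

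**Figure D5:**
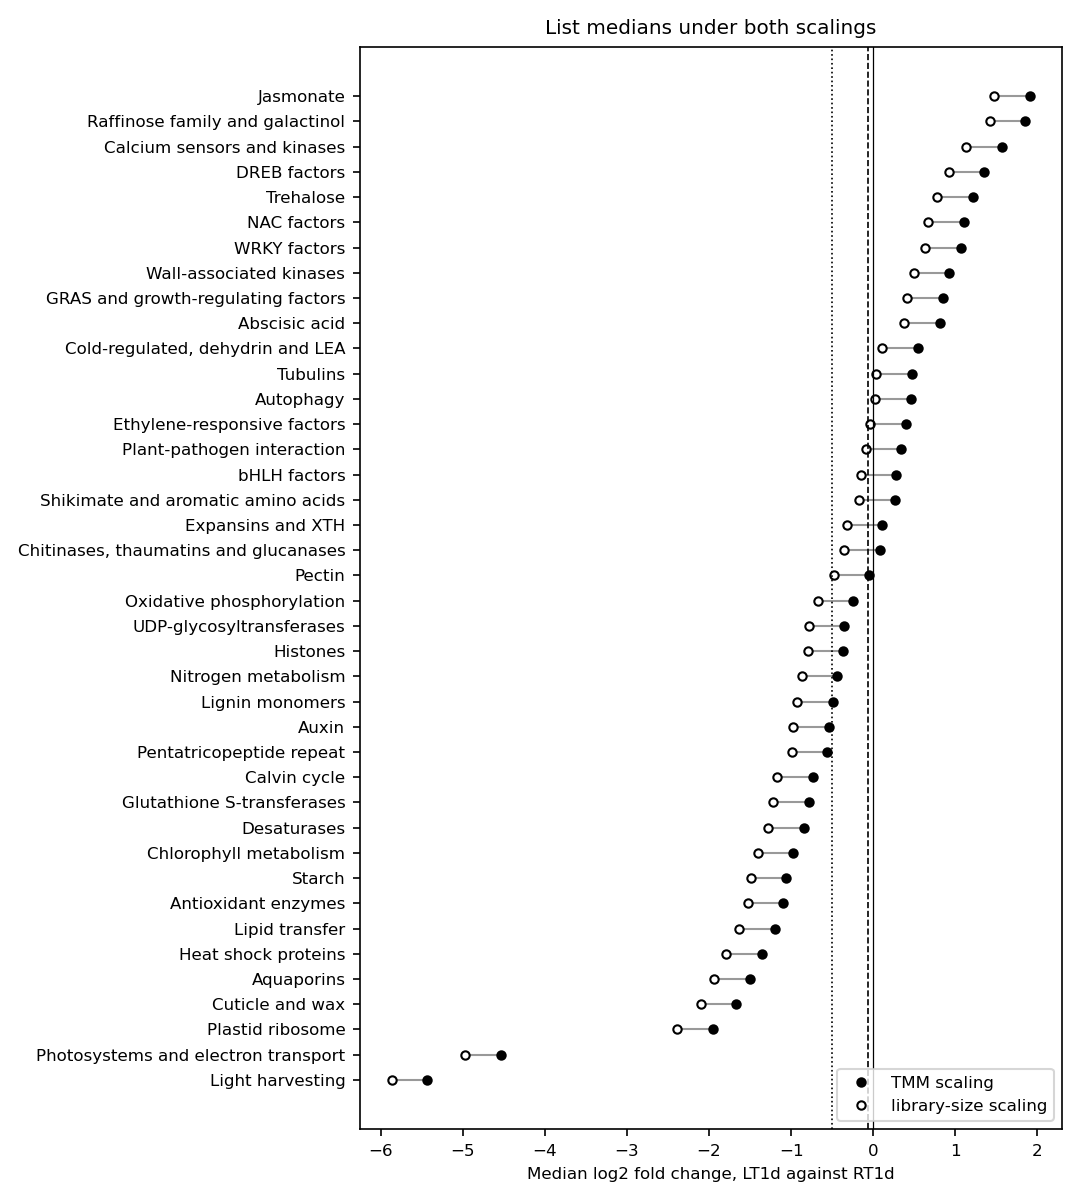
Median log2 fold change of LT1d against RT1d in 40 gene lists, with TMM scaling (filled circles) and with library-total scaling (open circles). The dashed and dotted lines mark the medians over all tested genes, -0.07 and -0.501, and lists near 0 change sign between the scalings.

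CK was used as a reference level for the direction of the differences. These comparisons with CK used FPKM, on which fold changes of LT1d against RT1d are lower than on the TMM scale. The CK libraries also varied. Of 6041 genes with a mean FPKM of at least 20 in CK, 3629 differed by more than 1.4-fold between its first and second libraries. Of the 5721 higher genes the CK mean was nearer to LT1d than to RT1d in 2388 (41.7%), and in 3608 (63.1%) every LT1d library was above every CK library. Of the 6461 lower genes CK was nearer to LT1d in 1994 (30.9%), and in 4906 (75.9%) every LT1d library was below every CK library. The lists differed in this. In the jasmonate list, CK was nearer to LT1d in 28 of 36 higher genes, in the clock list in 9 of 12, and in the trehalose list in 13 of 16. In the shikimate list it was nearer in 10 of 39, and in the class III peroxidases in 3 of 19. For light harvesting CK was nearer to LT1d in 2 of the 25 lower genes, and for heat shock proteins in 5 of 37.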

How the data were processed

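Libraries were grouped by their labels, LT1d and RT1d with 3 libraries each. As the study's methods state, paired-end reads of culm mRNA were aligned by HISAT2 to the genome of P. edulis, followed by assembly in StringTie, and the labels describe cDNA amplified with SMARTer oligonucleotides under a title on coumarin, which the methods do not mention. Cutadapt, FastQC, and Salmon appear in the submitters' processing notes without a role. The authors deposited FPKM, computed per the methods with StringTie and ballgown, and whole-number estimated counts without normalization for 42460 genes. The counting tool, the strandedness, and the treatment of reads with several matches were not given in the sources used here. Overlapping, antisense, and near-identical genes may therefore share reads.

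Counts of genes that reached an FPKM of 1 in 3 or more of the 6 libraries were tested with edgeR (version 4.0.16, quasi-likelihood F test, TMM scaling) in R 4.3.3, and genes were called at an adjusted p (Benjamini-Hochberg) of 0.05 or less over all tested genes and a fold change of at least 2. Only these 6 libraries were fitted, because the replicate spread of LT15d, LT25d, and RT15d was much smaller. An exact permutation test of 3 against 3 libraries cannot fall below 0.1. The test was also run on simulated counts in which 200 of 27117 genes were changed by known folds, up or down. It called 148 of these and 9 unchanged genes at both thresholds. With so few changed genes it cannot check the scaling of data in which 44.9% of genes were called. Gene lists (75) were found by words of the description or by a KEGG term and are described by counts and medians, with no test. The members and lists were chosen with earlier results of these data known.

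Named genes followed a rule. In each list these were the most abundant called gene and the called gene with the largest change, among those with separate groups and a mean FPKM of at least 10, in the direction with more calls, and the most abundant called gene in the other direction. Over all genes they were the 10 largest rises and falls that met the same conditions on separate groups and FPKM, and the 5 most abundant genes per group. The text marks genes and subgroups chosen after their values were seen. Alternatives were median-of-ratios, upper-quartile, and library-total scaling, DESeq2 (version 1.42.0), limma (version 3.58.1) on log2(FPKM + 1) and log2(FPKM + 0.1), other filters, all 21 libraries, counts divided by 4, a test against a 2-fold change, a replicate block, and leaving out each replicate. No reference sequence was used.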

Additional observations from a re-analysis of the deposited data

Results flagged for a closer look

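The effect of low temperature on Day 1 was compared with that on later days in a fit of all 21 libraries (edgeR, the difference of the LT against RT contrasts). Between Day 1 and Day 15 the effect differed in 9938 genes (33.2% of 29913 tested), of which 5859 were also called on Day 1. Between Day 1 and Day 25 it differed in 13422 genes (44.9%), of which 8937 were called on Day 1. Among the lists, 22 of the 25 light-harvesting genes called on Day 1 differed from Day 15 and 25 of 25 from Day 25, against 1 and 7 of the 7 called DREB genes. Beside these stand the 5859 and 8937 of all 12182 genes called on Day 1. The Day 1 libraries enter both the call and the difference, so called genes are more likely to differ. The replicate spread of LT15d, LT25d, and RT15d was smaller than that of LT1d and RT1d, and its part in these counts was not tested. The second RT25d library lay between the other RT25d libraries in 2144 of 2164 genes (99.1%). Without this library the Day 25 count was 12940, and without the third LT1d library it was 13062.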

How the results depend on the processing

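The number of higher genes was 5721 and that of lower genes 6461. With limma on log2(FPKM + 1) 3415 were higher, and with a mean FPKM of at least 5, which tests fewer genes (17002), 3523 were higher and 3571 lower. The differences between days, 9938 genes for Day 15 and 13422 for Day 25, were 5731 and 7708 with that filter. Leaving out one replicate gave 5507 to 5836 higher and 6089 to 6511 lower genes, and 9363 to 9950 and 12811 to 13616 genes for the day differences. With median-of-ratios scaling 5824 and 6337 genes were called, with DESeq2 5849 and 6346, without a filter 6580 and 7671 of 39980 tested, and with all 21 libraries 6224 and 7008. Same-numbered LT1d and RT1d libraries did not deviate together (correlations -0.11, -0.01, and 0.02), so the numbers were not taken as pairs. With the replicate number as a block 5641 genes were higher and 6343 lower. The median of a gene list changed sign in 23 lists with library-total scaling, 12 with upper-quartile scaling, 25 and 26 with limma at pseudocounts of 1 and 0.1, 11 with a mean FPKM of at least 5, 10 without a filter, 7 with all 21 libraries, and 1 each with median-of-ratios scaling and DESeq2. The cause was not tested. Of 242 named genes, 49 had a call that changed in at least 1 alternative, and none reversed. The third LT1d library lay between the others, so the error of LT1d rests on fewer than 3 independent libraries if it is not a separate sample, which was not tested.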

Other observations

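Several pathways outside the lists above held more lower than higher genes in LT1d. In glyoxylate and dicarboxylate metabolism, which includes photorespiration, 67 of 134 tested genes were lower and 15 higher, in terpenoid backbone biosynthesis 43 of 94 were lower and 8 higher, in diterpenoid biosynthesis 14 of 27 were lower and 2 higher, in carotenoid biosynthesis 32 of 81 were lower and 15 higher, and in riboflavin metabolism 18 of 38 were lower and 7 higher. The GO term hydrogen peroxide catabolic process had 31 of 56 genes lower and 10 higher, and response to chitin had 59 of 105 higher and 13 lower. These are descriptions without a test, beside 21.1% higher and 23.8% lower over all genes.

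Among abundant genes not described above, a heavy metal-associated isoprenylated plant protein gene (PH02Gene19095) had 1484, 1034, and 1208 in LT1d and 46.95, 53.9, and 82.9 in RT1d FPKM (log2 fold change 4.82, SE 0.28, edgeR adjusted p = 9.25e-06), with CK at 556, 883, and 587. A hypothetical protein gene (PH02Gene36491) had 1003, 1374, and 1216 in LT1d and 36.03, 33.8, and 79.8 in RT1d (log2 fold change 5.07, SE 0.41, edgeR adjusted p = 3.65e-05), with CK at 140.1, 238, and 101.4. An alpha carbonic anhydrase 7-like gene (PH02Gene19248), of the enzymes that interconvert CO2 and bicarbonate, had 559.6, 536, and 548 in LT1d and 79.8, 53.4, and 89.9 in RT1d (log2 fold change 3.36, SE 0.21, edgeR adjusted p = 1.20e-05), while the chloroplast beta carbonic anhydrase 5-like gene PH02Gene01293 had 3.69, 3.98, and 4.90 in LT1d and 44.3, 54.2, and 46.8 in RT1d (log2 fold change -3.05, SE 0.16, edgeR adjusted p = 6.69e-06). The vacuolar pyrophosphate-energized proton pump (PH02Gene11184) had 209, 156, and 182 in LT1d and 48.4, 76.7, and 87.98 in RT1d (log2 fold change 1.84, SE 0.24, edgeR adjusted p = 0.000342). In each of these genes the groups did not overlap, as in 20249 of all 27117 tested genes.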
